A study of Mus musculus with 4 samples.

Results

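Pleiotrophin (Ptn) and midkine (Mdk), together with the receptors Ptprz1 and Alk and the co-receptors Sdc3 and Sdc4, were followed through the cell types of the cerebellar leptomeninges, the soft membranes on the surface of the cerebellum. These 6 genes, of 32285 measured, were chosen by gene symbol as the ligands and receptors of this family. They were also selected on a value measured in the same data, the lower Ptn of mural cells in the Ndp knockout. The genotype comparison in mural cells is therefore given as a description, with no test.

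Pleiotrophin and midkine are the only members of a family of small secreted, heparin-binding growth factors, which are abundant in developing brain and bound by sulphated sugar chains of the cell surface and matrix. The receptor-type phosphatase Ptprz1, which carries chondroitin sulphate, is inactivated when pleiotrophin binds it, so that its substrates stay phosphorylated. The receptor tyrosine kinase Alk was proposed as a receptor of both factors, and its established ligands are Alkal1 and Alkal2. Syndecan-3 (Sdc3) and syndecan-4 (Sdc4) are membrane proteoglycans whose heparan sulphate chains hold both factors at the cell.

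The mice carried Neurod2-SmoA1 on 1 allele, a transgene that drives an activated Smoothened from the Neurod2 promoter, which is used in cerebellar granule neurons, and so gives Hedgehog-driven cerebellar tumours. All were on a C57BL/6 background, and the groups differed in Ndp, which was intact in NdpWT and knocked out in NdpKO. Norrin, its product, is secreted and activates beta-catenin in vascular endothelium of brain and retina. Each genotype was measured in 2 libraries of droplet 3' single-cell RNA sequencing, each a pool of 5 cerebella drawn from 3 litters, with dura and choroid plexus set aside at dissection. The labels give ages of 6 to 8 days after birth in the sample fields and 7 to 9 days in the protocol. No library lacked the transgene, so all values apply to this tumour-prone background.

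Filtering left 9079 and 12561 cells in NdpWT replicates 1 and 2 and 5599 and 10676 in NdpKO replicates 1 and 2, with median depths of 7220 to 14296 UMIs (unique molecular identifiers, 1 per captured transcript). NdpKO replicate 1 stood apart, since 44.1% of its barcodes passed the filters against 64.8% to 67.0% elsewhere. No more than 47 cell barcodes were shared between any pair of libraries. Ndp itself was at 2.07 and 1.35 UMIs in 1000000 (CPM) in the NdpWT libraries and at 0.411 and 0.470 in the NdpKO libraries. The cells fell into 35 clusters, which gave 17 named classes and 4 clusters known by number only. Clusters 7, 8 and 16 are shallow and led by genes of granule neurons, of their precursors and of arachnoid cells, and cluster 18 is led by arterial endothelial genes. The arachnoid barrier class takes its name from the tight-junction layer of the arachnoid. Cluster 13, with 1301 of its 1385 cells, is led by Nppc and Ecrg4. It had 4 of the 7 barrier markers raised over the median cluster, with 1 among its leading genes. Fibroblast markers came next there, at a mean log2 fold of 2.14 against 2.51, so this name is uncertain.

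Ptn lies on the minus strand of chromosome 6 (mm10, 36714929 to 36810220; ENSMUSG00000029838) and Mdk on the minus strand of chromosome 2 (91929805 to 91932297; ENSMUSG00000027239). Ptprz1 lies on chromosome 6 (22875502 to 23052916, plus strand; ENSMUSG00000068748) and Alk on chromosome 17 (71868972 to 72604627, minus strand; ENSMUSG00000055471). Sdc3 lies on chromosome 4 (130792537 to 130826319, plus strand; ENSMUSG00000025743) and Sdc4 on chromosome 2 (164424247 to 164443887, minus strand; ENSMUSG00000017009). Sdc3 is the only gene of the 6 that overlaps other counted genes, Gm12970 and Gm26716, both on the opposite strand. UMIs are read near the 3' end of the transcript, inside each of these spans.

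The sequence before the start of Ptn is shown because Ptn is the gene the set was selected on. It comes from RefSeq (GRCm38.p6, the mm10 assembly, chr6:36810221-36810429, minus strand) and holds the 209 bases that precede the start in both RefSeq and GENCODE. Capitals mark the match to the TATA core, read 5' to 3' on the strand of the gene.
Ptn promoter: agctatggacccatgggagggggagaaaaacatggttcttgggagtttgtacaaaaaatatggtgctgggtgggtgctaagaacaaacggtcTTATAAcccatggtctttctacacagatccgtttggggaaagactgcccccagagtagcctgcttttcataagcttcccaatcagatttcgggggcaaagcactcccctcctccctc
The capitals hold TATAA and its reverse complement TTATA, which overlap, and begin 117 bases before the GENCODE start. TATAA on either strand was found in 18.5% of 32851 RefSeq windows of the same length and place. CTTTGA, the core letters bound by the TCF/LEF partners of beta-catenin, had 0 matches on either strand of the Ptn window and was found in 12.2% of all windows. AGGTCA of nuclear receptors (11.9% of windows), the GC box GGGCGG (26.5%) and the E-box CACGTG (4.62%), searched in the same way, had 0 matches as well. A match is a description of these letters only, and its absence says nothing of the factor. A promoter sequence was matched for 5 of the 6 genes, without Mdk.

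Levels are given in CPM, the UMIs of a gene out of 1000000 UMIs of all cells of a class in a library. Fibroblasts of the leptomeninges, which lay down the collagen-rich matrix of the membranes, held by far the most Ptn, and the order of the classes over the 4 libraries is a description. Ptn stood at 12615.5 and 12681.5 CPM in the fibroblasts of the NdpWT libraries and at 9037 and 11431 in those of the NdpKO libraries, a mean of 11441 ± 1703 (SD, n = 4). Astroglia, the glia that include Bergmann cells, followed at 5492 ± 1738, with a lowest library of 3567, and stood apart from every class below them. From cluster 16 (2191 ± 407) through arachnoid barrier cells (1906 ± 246), oligodendrocyte lineage (1839 ± 583), granule neuron lineage (1551 ± 294) and mural cells (1282 ± 492), each neighbour overlapped the next. At the foot of the order stood endothelial cells (404 ± 190), mast cells (189 ± 207) and macrophages (177 ± 71.5).

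**Figure D1:**
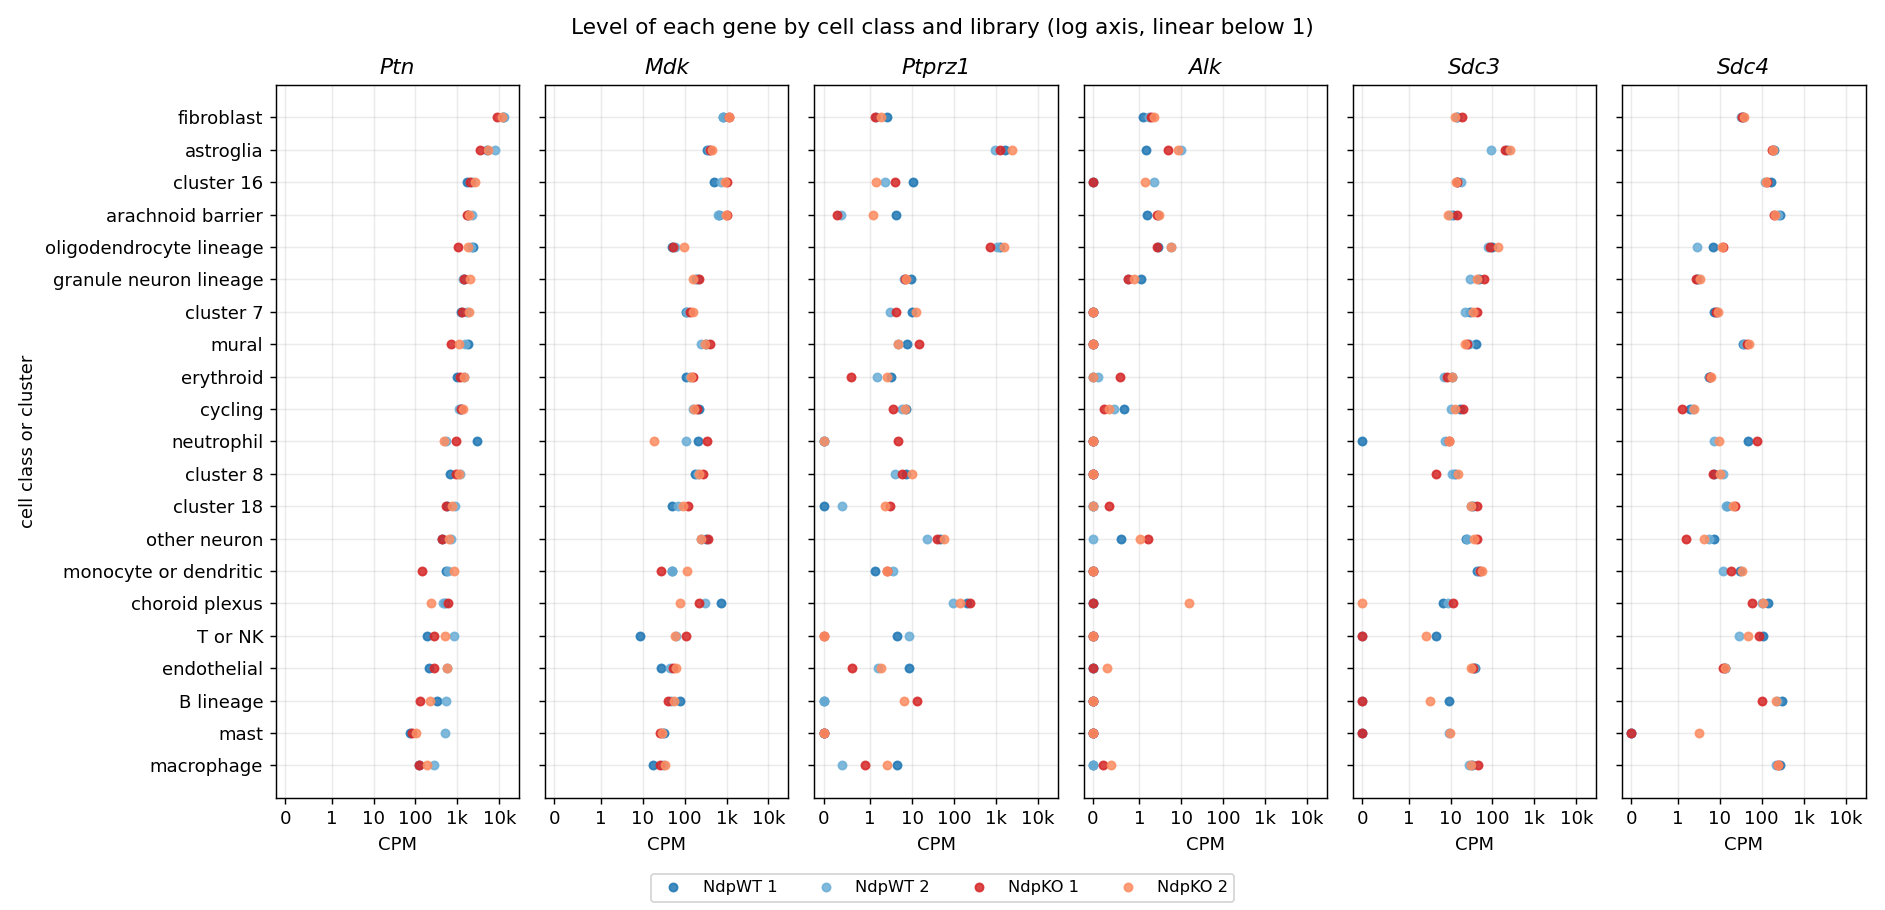
CPM (log axis, linear below 1) of the 6 genes in 21 cell classes or clusters, 1 point per library, with classes ordered by mean Ptn. Ptn and Mdk peak in fibroblasts, Ptprz1 and Sdc3 in astroglia and the oligodendrocyte lineage, and Sdc4 in macrophages, arachnoid barrier cells, B lineage cells and astroglia.

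Erythroid cells, which do not make pleiotrophin, held Ptn at 1259 ± 230 CPM. Cluster 29, with 10, 55, 17 and 20 of the 2204 erythroid cells in the 4 libraries and fibroblast markers beside its haemoglobin genes, held 8256 ± 1463, and the other erythroid clusters far less, at 684 ± 137 in cluster 12 and 190 ± 115 in cluster 19. Without cluster 29, a choice made after seeing the data, erythroid cells held 526 ± 122.5, above macrophages in each of the 4 libraries. Free RNA in the droplets can give such levels, so a mean Ptn below the 684 CPM of cluster 12 is not read here as expression. That applies to cluster 18 and to every class lower in the order.

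Within the fibroblasts Ptn differed between clusters more than between libraries. Cluster 5, led by Col15a1, Lama1 and Itih5, held 14262 ± 1862 CPM (SD, n = 4). Cluster 1, led by Wnt6, Aldh1a2 and Slc13a4, held 9858 ± 987, and cluster 24, dividing fibroblasts led by Tubb6 and Hmmr, held 10546 ± 1463. Cluster 14, a shallow cluster led by Ptgds and Slc22a8, held 6047 ± 707. In the granule neuron lineage, cluster 0, with the precursor gene Atoh1, held 1068 ± 148, and cluster 3, with Cntn2 and Tubb3 of newly postmitotic neurons, held 2197 ± 353. Each of the 4 libraries was higher in cluster 3 than any was in cluster 0.

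Mdk shared the meningeal end of the Ptn order. Fibroblasts held 973 ± 169 CPM (SD, n = 4), the class named arachnoid barrier 816 ± 203, and cluster 16 held 803 ± 238, and these 3 overlapped. Astroglia (390.004 ± 40.5) stood below all 3 of them, followed by choroid plexus (329 ± 277), mural cells (318 ± 64.3) and other neurons (295 ± 55.9), and macrophages were lowest (26.9 ± 7.05). In the granule neuron lineage the precursors of cluster 0 held most Mdk (274 ± 45.7), followed by cluster 3 (178 ± 25.5). Clusters 10 and 15, both with Grin2b of maturing neurons, held 45.5 ± 10.4 and 62.2 ± 30.1, and each of their libraries was below every library of clusters 0 and 3. Ptn had another order there, at 2067 ± 463 in cluster 10 and 1043 ± 407 in cluster 15.

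**Figure D2:**
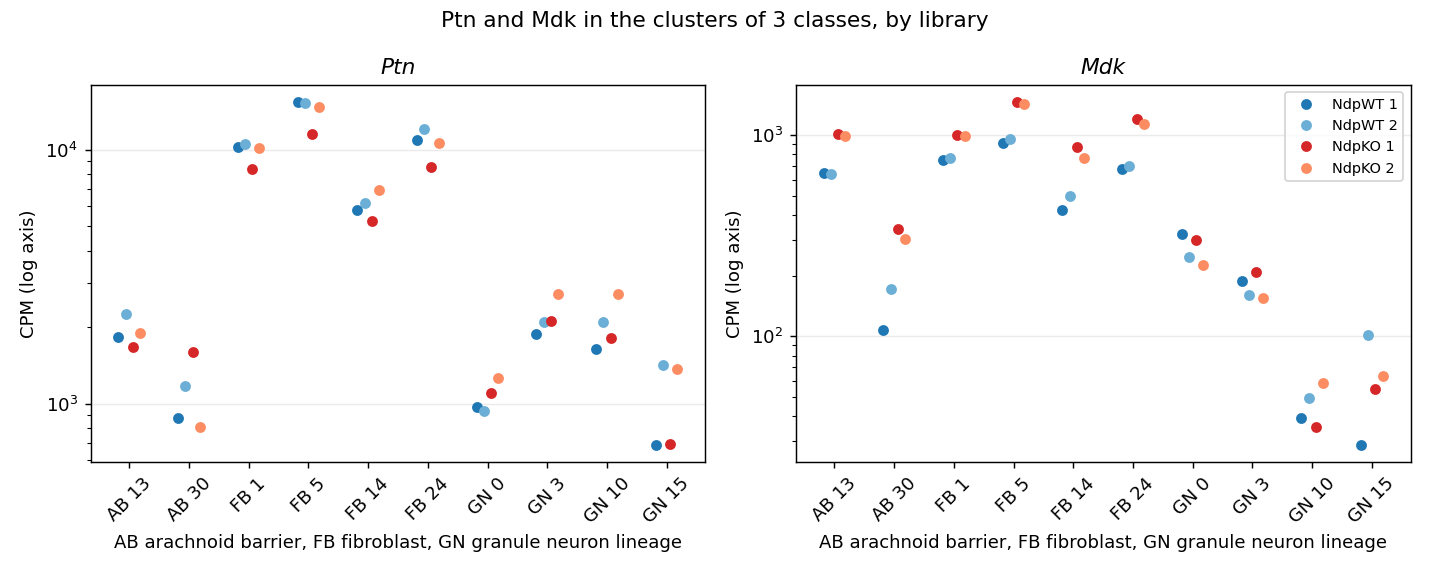
Ptn and Mdk in CPM (log axis) in each cluster of the arachnoid barrier (AB), fibroblast (FB) and granule neuron lineage (GN) classes, 1 point per library. Mdk of both NdpKO libraries lies above both NdpWT libraries in all 6 AB and FB clusters, while Ptn overlaps in AB 13, AB 30, FB 14, GN 10 and GN 15. The clusters share their libraries and are not separate evidence.

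Ptprz1 was a transcript of neural cells. Astroglia held 1615, 941, 1252 and 2473 CPM in NdpWT 1, NdpWT 2, NdpKO 1 and NdpKO 2, and the oligodendrocyte lineage, which includes the precursors known for Ptprz1, held 1232, 1068, 732 and 1575. These 2 classes overlapped, and both stood above choroid plexus (171 ± 66.5) and other neurons, the mostly inhibitory neurons of the cerebellum (41.5 ± 14.999). No other class had a mean above 7.94 CPM, the level in mural cells. Fibroblasts, where Ptn was highest, held Ptprz1 at 1.75 ± 0.571.

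Alk was at the limit of detection, with 414 UMIs in all kept cells. Its highest means were in astroglia (6.103 ± 3.81) and the oligodendrocyte lineage (4.17 ± 1.66), followed by choroid plexus, where the mean rested on 1 UMI in 1 library. Arachnoid barrier cells (2.48 ± 0.680) and fibroblasts (1.76 ± 0.455) had Alk UMIs in every library. In mural cells no library had an Alk UMI, and 3 counts in each, the limit that a count of 0 allows, would be levels of 1.16 to 2.89 CPM.

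Sdc3, the syndecan of developing neurons and glia, peaked where Ptprz1 did. Astroglia held 195 ± 72.6 and the oligodendrocyte lineage 100.3 ± 27.5 CPM (SD, n = 4), overlapping each other and apart from the next class, monocytes or dendritic cells (49.4 ± 5.65). Granule neuron lineage (46.0 ± 14.3), endothelial cells (35.2 ± 3.49) and macrophages (33.9 ± 7.39) overlapped below them, and fibroblasts held 15.03 ± 2.84. Sdc4, the broadly expressed syndecan of focal adhesions, had another order. Macrophages held 245 ± 21.5, arachnoid barrier cells 231 ± 35.2, B lineage cells 218 ± 85.5 and astroglia 186 ± 9.33, which overlapped in turn. Cluster 16 (137 ± 21.1) stood below these classes except for B lineage cells, whose lowest library had 104. Fibroblasts held Sdc4 at 35.2 ± 3.03, and the oligodendrocyte lineage at 8.24 ± 4.22.

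Across the 14 classes and clusters with at least 50 cells in every library, Ptn and Mdk had a Pearson correlation of 0.84 in log2 level, given as a description because all classes come from the same 4 libraries. The genes most like Ptn were Cemip, a hyaluronan-binding protein (r = 0.93), Clcn2 (0.90) and Angptl2 (0.89). Mdk was closest to Chpf, a chondroitin polymerising factor (0.95), Smarca1 (0.95) and the Wnt co-receptor Ptk7 (0.94). Ptprz1 was closest to Brinp2 (0.93), the radial glial gene Fabp7 (0.90) and Sgip1 (0.90), over classes that leave out the rarer astroglia and oligodendrocyte lineage. Sdc3 was closest to Pip5k1c, Bbc3 and Kdm6b (0.88 to 0.89), and Sdc4 to Uap1l1, Sult1a1 and Cryl1 (0.94 to 0.95). Alk, too low for its order to bear weight, was closest to Epha7, Snhg11 and Slc24a3 (0.86 to 0.87).

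Knockout and wild type were then compared in the summed UMIs of each class by edgeR's quasi-likelihood test, adjusted over all genes tested in that class, with CPM scaled by TMM factors, edgeR's correction for library composition. Outside mural cells the 6 genes could be tested in 61 pairs of gene and class. By edgeR 0 of them passed an adjusted p of 0.05, 9 had an unadjusted p below 0.05, and DESeq2 called 1, Mdk in arachnoid barrier cells. Few genes were called in most classes: 3.37% of all genes tested in endothelial cells, 0.104% in macrophages, 0.0144% in cluster 16, 0.0128% in fibroblasts, and 0% in the other 9. In mural cells 0.0369% were called. These shares are of edgeR calls. The shares of all genes with an unadjusted p below 0.05, or called by DESeq2, are not given. Neither of those counts is therefore read as a result about the 6 genes.

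Mdk was higher in both NdpKO libraries than in both NdpWT libraries in 7 of the 13 classes, without passing the test in any. In a single class 11.2% to 21.4% of all genes tested had this order. The share of genes with it in 7 or more classes was not computed. In arachnoid barrier cells Mdk stood at 658 and 624 CPM in NdpWT replicates 1 and 2 and at 1003 and 988 in NdpKO replicates 1 and 2. The genotypes lay far apart against the gap within either, with a log2 change of 0.63 ± 0.13 (SE) and an edgeR adjusted p of 0.377 (unadjusted 0.00056). DESeq2 gave 0.63 ± 0.14 with an adjusted p of 0.0150, and over 12 alternatives the adjusted p ran from 0.000609 with a block for the replicate number to 1.00 with a stricter cell filter. The 10 fibroblast markers, all with UMIs, summed to 9079 and 9722 CPM in the NdpWT and 10202 and 10001.6 in the NdpKO arachnoid barrier cells. Their part in the Mdk value was not tested. How many of all genes were called under each alternative is not given, so the passes there are not read as a result about Mdk.

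In fibroblasts Mdk stood at 833 and 829 in the NdpWT libraries and at 1108 and 1123 in the NdpKO libraries, a log2 change of 0.43 ± 0.12 (edgeR adjusted p = 0.341; from 0.0126 with that block to 1.00 without NdpKO replicate 1). The libraries of a genotype lay close together and the genotypes did not overlap. All 7 arachnoid barrier markers had UMIs in fibroblasts and summed to 418 and 424 CPM against 623 and 457, whose part was not tested either. Each fibroblast cluster had this order, and so did both arachnoid barrier clusters. These clusters are parts of the same classes and libraries and do not count as separate evidence. The share of all genes with this order in every one of them was not computed. In the Col15a1 cluster 5 Mdk was at 914 and 951 in NdpWT and at 1457 and 1431 in NdpKO, and in the Wnt6 cluster 1 at 750.4 and 771 against 999.9 and 992. The log2 ratios of the genotype means were 0.63 and 0.39 in these clusters and 0.83 and 0.76 in clusters 14 and 24. In clusters 13 and 30 of the arachnoid barrier they were 0.63 and 1.22. Cluster 30 is shallow and small, with 12 and 22 cells in NdpWT and 16 and 34 in NdpKO. Its Mdk was at 107 and 171 against 342 and 305, so the size of its ratio carries little weight.

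The other classes with this order held less Mdk. Erythroid cluster 12, whose level served above as the limit for Ptn, held Mdk at 90.0 CPM. The means of cluster 18 (82.2) and endothelial cells (46.3) were below it and are not read here as expression. In cluster 18, of arterial endothelium, Mdk was at 51.0 and 68.0 in NdpWT and at 121 and 90.8 in NdpKO, a log2 change of 0.80 ± 0.20 (edgeR adjusted p = 0.899). In endothelial cells it was at 28.0 and 44.3 against 53.7 and 59.8, a change of 0.60 ± 0.21 (adjusted p = 0.216). In both it passed without the filter on low counts (adjusted p = 0.0164 and 0.0469) and without NdpWT replicate 2 (1.05 ± 0.27, adjusted p = 0.0176, and 1.01 ± 0.26, adjusted p = 0.0483). Cluster 18 passed without NdpKO replicate 2 as well (0.98 ± 0.23, adjusted p = 0.0453), and endothelial cells with the replicate block (adjusted p = 0.00807). The highest adjusted p over the alternatives was 1.00 in cluster 18 and 0.990 in endothelial cells. When more barcodes were removed as likely doublets, Mdk changed by 0.18 ± 0.23 in cluster 18 and by 0.03 ± 0.35 in endothelial cells, against 0.54 ± 0.13 in arachnoid barrier cells and 0.40 ± 0.12 in fibroblasts. All 10 fibroblast markers had UMIs in both endothelial groups, with sums of 1472, 2322, 3202 and 1974 CPM in cluster 18 and 324, 835, 765 and 813 in endothelial cells, with the NdpWT libraries first. Their part in the endothelial values was not tested. Since the share of all genes called under each alternative is not given, the passes in these groups are not read as a result about Mdk.

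Mdk did not follow this order in the neural classes of full depth. In the granule neuron lineage it was at 188 and 205 in NdpWT and 213 and 159 in NdpKO, a log2 change of -0.08 ± 0.18. Cycling cells (-0.07 ± 0.20) and other neurons (0.03 ± 0.20) also overlapped between genotypes, as did macrophages, erythroid cells and monocytes or dendritic cells. The shallow clusters 16, 7 and 8 had the order, with changes of 0.70 ± 0.25, 0.47 ± 0.18 and 0.45 ± 0.18. Of all genes tested, the share with both NdpKO libraries above both NdpWT libraries was 17% in arachnoid barrier cells, 20.6% in fibroblasts, 21.4% in endothelial cells, and 15.6%, 16%, 13.7% and 15.2% in clusters 16, 18, 7 and 8. It was 12.9% in cycling cells, 14.6% in erythroid cells, 11.2% in the granule neuron lineage, 16.9% in macrophages, 15.8% in monocytes or dendritic cells and 17.2% in other neurons. Against that background an ordered gene in a single class is no result, and the 13 classes share their 4 libraries and do not count as separate evidence.

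**Figure D3:**
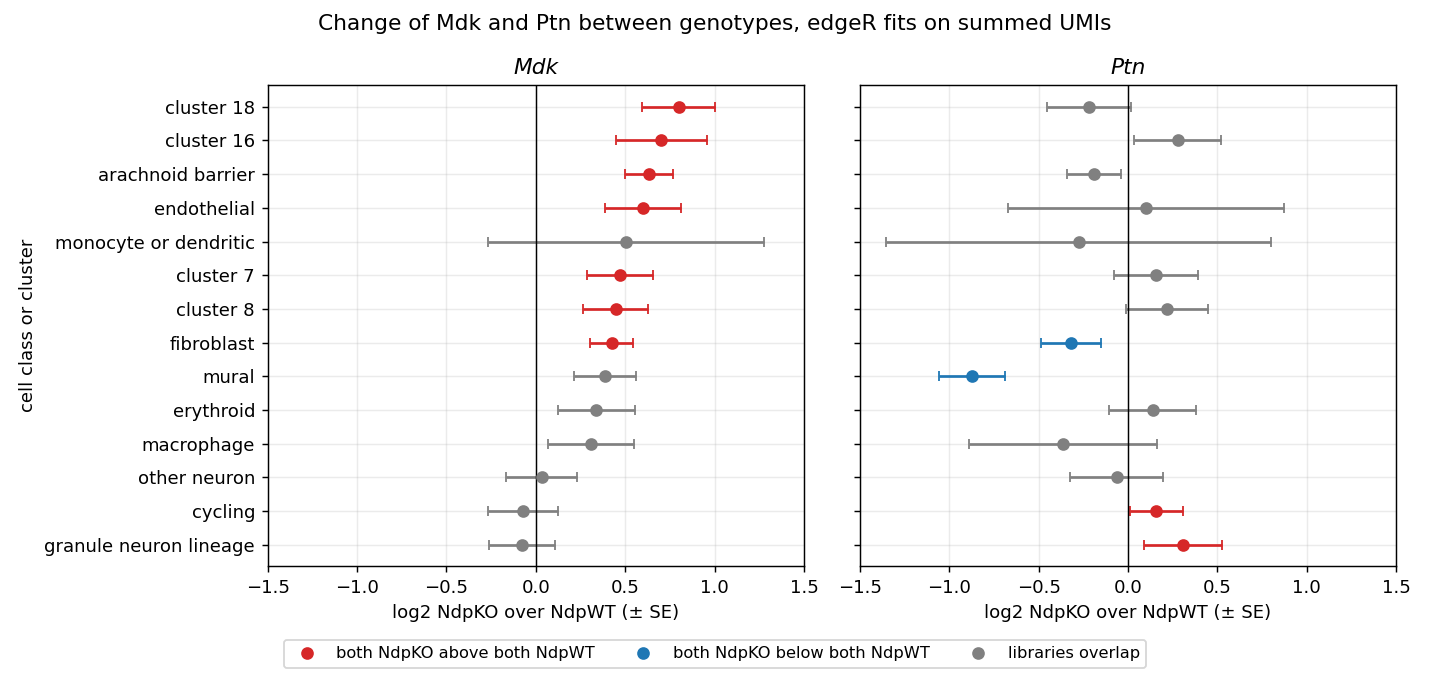
Log2 change of Mdk and Ptn between NdpKO and NdpWT (± SE, edgeR on summed UMIs, n = 2 libraries per genotype) in 14 classes or clusters; red and blue mark classes where both NdpKO libraries lie above or below both NdpWT libraries. Mdk is to the right of 0 in most classes, while Ptn lies on both sides of 0 and is farthest from it in mural cells. That mural Ptn value is the one the genes were selected on.

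Ptn did not pass the test in any of the 13 classes tested outside mural cells. In fibroblasts it was at 12881 and 12533 CPM in NdpWT replicates 1 and 2 and at 8966 and 11445 in NdpKO replicates 1 and 2. Both NdpKO libraries were lower, as for 19.5% of all genes there, and NdpKO replicate 1 was the lowest. The log2 change was -0.32 ± 0.17 (edgeR adjusted p = 0.631). Cluster 5, highest in Ptn, gave 533 of 1129 and 946 of 2211 fibroblasts in NdpWT and 264 of 1235 and 546 of 1966 in NdpKO. Cluster 14, lowest in Ptn, gave 86 and 315 in NdpWT and 324 and 357 in NdpKO. Log2 ratios of the genotype means of Ptn were -0.17, -0.22, 0.03 and -0.26 in clusters 1, 5, 14 and 24. The part of fibroblast makeup in the class values of Ptn and Mdk was not tested. In the granule neuron lineage Ptn was at 1446 and 1327 against 1456 and 1979, a change of 0.31 ± 0.22 (adjusted p = 1.00), in which the NdpKO libraries differed from each other more than the lower of them did from NdpWT. Arachnoid barrier cells (-0.19 ± 0.15) and erythroid cells (0.14 ± 0.24) overlapped between genotypes. The rarer classes were not tested. Among these, oligodendrocyte lineage Ptn was at 2419 and 2087 in NdpWT and 1053 and 1795 in NdpKO. B lineage cells had the same order at levels not read here as expression, and astroglia and the other untested classes overlapped. The share of all genes with this order in untested classes is not given. Ptn passed the test in macrophages without NdpWT replicate 1 (-0.82 ± 0.16, adjusted p = 0.000154) and in monocytes or dendritic cells without NdpKO replicate 2 (-2.03 ± 0.27, adjusted p = 8.32e-05). With all libraries the changes there were -0.37 ± 0.53 and -0.28 ± 1.08, and the lone library of such a fit is assumed to vary like the other group.

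In mural cells, the pericytes and smooth muscle cells that wrap vessels, Ptn was at 1789.95 and 1535 CPM in NdpWT replicates 1 and 2 and at 726 and 1087 in NdpKO replicates 1 and 2. Both NdpKO libraries were lower than both NdpWT libraries, by a log2 change of -0.87 ± 0.18 (SE). This is the value the genes were selected on and it carries no test, and 18.1% of all genes tested in mural cells had both NdpKO libraries below. It rests on 104, 329, 106 and 224 cells. Without NdpKO replicate 1 the change was -0.61, and without NdpKO replicate 2 it was -1.19.

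The mural class was not uniform in Ptn, and most of its Ptn came from few cells. Subcluster 3, pericyte-like by Abcc9 and Kcnj8, held 4567 and 4428 CPM in NdpWT and 2347 and 4760 in NdpKO. Its 90 cells gave 30.1% to 35.9% of the mural Ptn UMIs of a library. NdpKO replicate 1 alone was low there, the genotypes overlapped, and the log2 change was -0.31 ± 0.25.

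Subcluster 2, smooth-muscle-like by Cnn1 and Eln, had little Ptn, 84.5 and 235 in NdpWT and 66.6 and 118 in NdpKO, which overlapped. Subcluster 0, led by Car4, Casq2 and Kitl, held 481 and 434 against 252 and 309. Subcluster 1, shallow and with haemoglobin RNA, held 962 and 1762 against 328 and 582. In subclusters 0 and 1 both NdpKO libraries were lower, with log2 changes of -0.70 ± 0.19 and -1.60 ± 0.31, given as descriptions. Subclusters 0 and 2 were below the 684 CPM of erythroid cluster 12 in every library, and subcluster 1 was below it in both NdpKO libraries. Such levels are not read here as expression.

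Subcluster 4 held collagen genes of fibroblasts (Col1a1, Col3a1) and Ptn at 3097 to 7608, and gave 23.5% to 37.6% of the mural Ptn UMIs from 60 cells, of which NdpKO replicate 1 had 2. Subcluster 5 held granule lineage genes, and subcluster 6, of 28 cells, held Ptn at 840.3 to 4104. Without subclusters 4 and 5, a choice made after seeing the data, Ptn was at 1361 and 1373 in NdpWT and 474 and 783 in NdpKO, a log2 change of -1.12 ± 0.20. The 10 fibroblast markers, all with UMIs, then summed to 1735 and 1863 in NdpWT and 1866 and 1667 in NdpKO, which overlapped, against 2850 and 2509 and then 2222 and 2167 over all mural cells.

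The makeup of the mural class moved with genotype as well. The low-Ptn smooth-muscle-like subcluster was 13.5% and 14.3% of mural cells in NdpWT and 30.2% and 27.2% in NdpKO, and the high-Ptn pericyte-like subcluster 13.5% and 13.1% against 10.4% and 9.82%. The summed level of 6 pericyte markers was 9896 and 8049 against 7807 and 6807 CPM, and that of 6 smooth muscle markers 19934 and 19853 against 24134 and 26811. With equal weight to subclusters 0 to 3, Ptn was at 1524 and 1715 in NdpWT and 749 and 1442 in NdpKO, a log2 ratio of -0.56. Of the other lists, the 10 astroglial markers summed to 273, 177, 223 and 203 and the 7 arachnoid barrier markers to 24.1 to 31.5, with Krt8 and Krt18 at 0. Oligodendrocyte markers summed to 172 and 46.0 in NdpWT and 20.5 and 25.2 in NdpKO. Markers of other neurons (80.0 and 43.1 against 13.6 and 41.1) and mast cells (121.5 and 90.8 against 74.5 and 60.8) were also lower in both NdpKO libraries. So were those of B lineage cells, at 0.525 to 3.86, while endothelial, macrophage and granule lineage markers overlapped. The 7 erythroid markers ranged from 2896 to 27855, lowest in NdpWT replicate 1. The part of cell makeup and of foreign RNA in the lower Ptn was not tested.

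**Figure D4:**
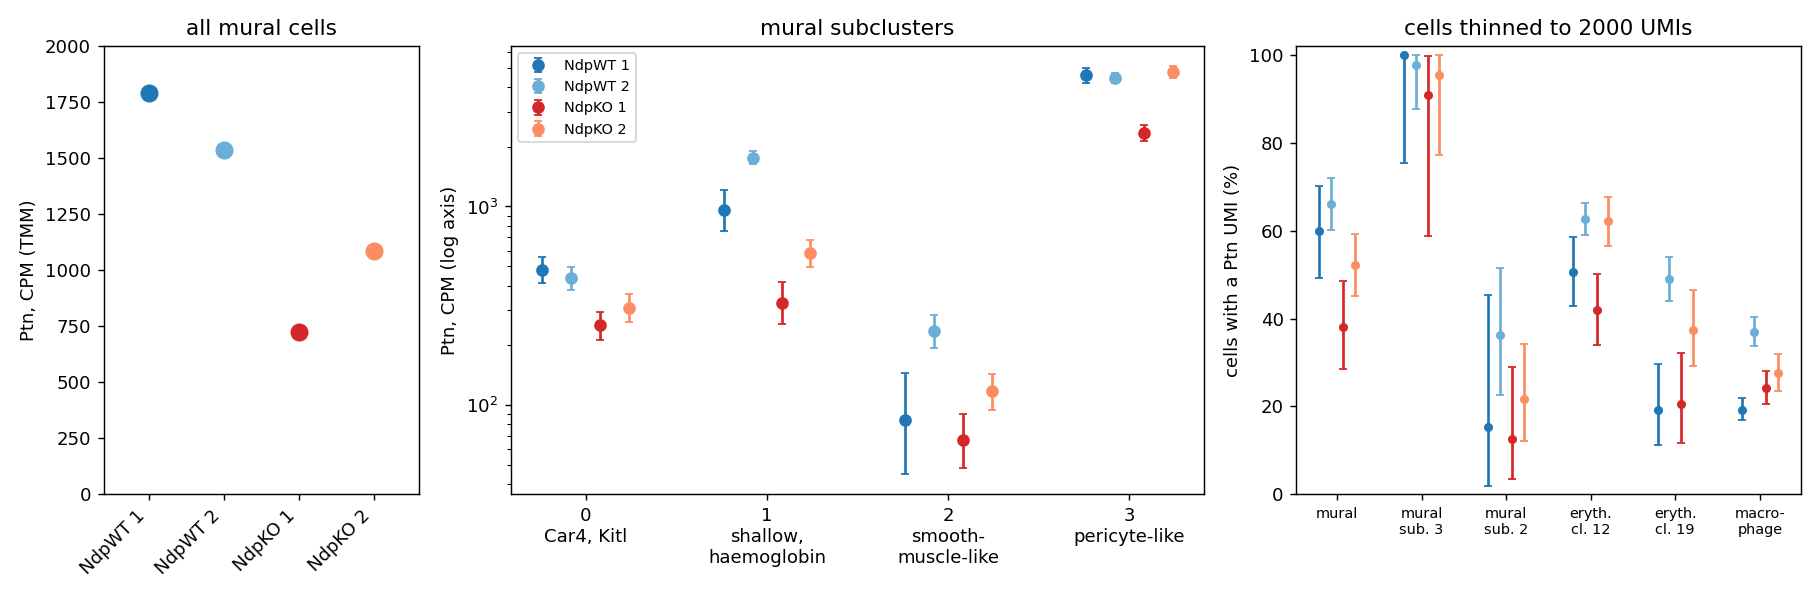
Ptn in mural cells by library: CPM over all mural cells (left, TMM-scaled), in 4 subclusters (middle, log axis, bars are exact 95% Poisson intervals), and the share of cells with a Ptn UMI after thinning to 2000 UMIs (right, bars are exact 95% binomial intervals). Subclusters 2 and 3 lie far apart in each of the 4 libraries, and erythroid clusters 12 and 19 and macrophages show the share that cells not known to make Ptn give.

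The share of mural cells with a Ptn UMI was compared after thinning each cell to 2000 UMIs. It was 60.0% (95% exact binomial interval 49.1% to 70.2%) and 66.2% (60.1% to 71.9%) in NdpWT replicates 1 and 2, and 38.1% (28.5% to 48.6%) and 52.2% (45.1% to 59.3%) in NdpKO replicates 1 and 2. Thinning left out 14, 69, 9 and 23 shallower cells, and the intervals cover counting error only. Unthinned shares were 84.6%, 90.6%, 75.5% and 86.6%, at median depths of 9766, 7228, 19010 and 11598.5 UMIs.

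Erythroid cells without cluster 29 gave thinned Ptn shares of 40.6%, 57.9%, 35.3% and 55.0% in the same order, at median depths of 6539.5 to 19235 UMIs. With that cluster they were 42.9%, 59.9%, 39.5% and 57.0%. Macrophages gave 19.3%, 37.0%, 24.1% and 27.6%, at 8642 to 17540.5 UMIs. The erythroid share without cluster 29 lay below the interval of the mural share in both NdpWT libraries and inside it in both NdpKO libraries. Over the whole class, mural Ptn in CPM was above that of erythroid cells without cluster 29 in each of the 4 libraries (510.3, 559, 369.8 and 665 CPM in those erythroid cells), so no order is read from the NdpKO shares. The pericyte-like subcluster, at 100%, 97.7%, 90.9% and 95.5%, was above the erythroid share in each library.

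Mdk went the other way from Ptn in mural cells, at 312 and 247 in NdpWT and 420 and 308 in NdpKO, which overlapped (log2 change 0.39 ± 0.17). In subcluster 0 it was at 229 and 239.9 against 573 and 374, a change of 1.02 ± 0.20. Sdc3 was at 40.01 and 27.3 against 25.2 and 22.2, a change of -0.46 ± 0.26, and Sdc4 at 36.2 and 38.4 against 46.0 and 50.2, a change of 0.36 ± 0.20. Mural Ptprz1 overlapped, at 4.67 to 15.3. These mural values belong to the contrast used in the selection and are likewise descriptions.

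The receptors outside mural cells changed in no class by the adjusted test. Sdc4 in arachnoid barrier cells was at 276 and 244 in NdpWT and 192 and 215 in NdpKO. The NdpKO libraries were lower, as in 15.9% of all genes there, with a log2 change of -0.36 ± 0.13 (edgeR adjusted p = 0.998). In cluster 18 Sdc4 was at 15.2 and 14.2 against 23.3 and 21.4, a change of 0.62 ± 0.29 (adjusted p = 1.00). Macrophages, its highest class, overlapped at 283 and 224 against 243 and 235, a change of -0.09 ± 0.14.

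Sdc3 was higher in the NdpKO libraries of other neurons, at 24.1 and 25.1 against 45.5 and 35.4, a log2 change of 0.73 ± 0.30 (edgeR adjusted p = 0.910). In endothelial cells it was at 39.5 and 36.3 against 35.7 and 30.2, a change of -0.20 ± 0.19. In the granule neuron lineage it changed by 0.42 ± 0.29, and by 0.88 ± 0.18 without NdpWT replicate 1. That fit keeps NdpWT replicate 2 alone, with 1390 of its 2486 lineage cells in the precursor cluster 0. The counts were 602 of 2337 in NdpWT replicate 1 and 297 of 756 and 795 of 2509 in NdpKO. Sdc3 was at 19.4 ± 5.53 CPM in cluster 0 and 63.1 ± 18.4 in cluster 3. The part of this makeup was not tested. Ptprz1 in other neurons overlapped, at 45.8 and 23.2 against 41.3 and 57.7 (0.36 ± 0.30). Astroglia and the oligodendrocyte lineage, its main sources, had under 50 cells in some libraries and were not tested. Alk could be tested in 3 classes, with changes of -0.19 ± 0.50 in the granule neuron lineage, 0.44 ± 0.43 in arachnoid barrier cells and 0.54 ± 0.32 in fibroblasts.

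Other genes of the pathway were taken as 5 lists of 67 genes in all. Outside mural cells 3 of 651 pairs of gene and class passed the edgeR test, all in endothelial cells and all in the list of further receptors proposed for pleiotrophin or midkine, of which 14 of 16 could be tested there. These are 3 of 51 list genes tested in endothelial cells, 5.88%, where 3.37% of all genes were called. Itga6, the laminin-binding integrin alpha 6, was at 137 and 155 CPM in NdpWT and 249 and 268 in NdpKO and rose by a log2 change of 0.82 ± 0.14 (adjusted p = 0.00653). Itga4, the alpha 4 integrin, was at 178 and 148 against 75.1 and 94.4 and fell, with a change of -0.94 ± 0.16 (adjusted p = 0.00696). Nrp1, a semaphorin and VEGF co-receptor, was at 219.9 and 217 against 336 and 330.1 and rose by 0.61 ± 0.13 (adjusted p = 0.0254). In each of the 3 the genotypes did not overlap. Nrp1 lost its call when any library was left out, while Itga6 and Itga4 kept theirs in 12 of 12 alternatives.

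The median log2 change of these 14 receptors in endothelial cells was 0.16, against 0.01 over all genes tested. The most abundant of the list, nucleolin (Ncl), was at 664 and 742 against 700.2 and 697, and Itgb1 at 677 and 565 against 607 and 587, and neither passed the test. The other 4 lists had 0 calls in endothelial cells. The Alk adaptors Grb2 (-0.05 ± 0.14) and Ptpn11 (-0.11 ± 0.17), the Ptprz1 partners and substrates Ctnnb1 (0.48 ± 0.14, adjusted p = 0.105) and Ncam1 (0.62 ± 0.30), the heparan sulphate enzymes Ext2 (-0.05 ± 0.18) and Ndst1 (0.26 ± 0.17), and the matrix proteoglycans Dcn (0.24 ± 1.17) and Bgn (-0.35 ± 0.19) are the most abundant members of these lists. The enzymes that build or edit heparan and chondroitin sulphate chains had a median change of 0.26 over 20 of 22 tested, the Ptprz1 list one of 0.23 over 8 of 13, the Alk list 0.13 over 6 of 9 and the matrix proteoglycans 0.19 over 3 of 7.

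In fibroblasts and arachnoid barrier cells, where Mdk was highest, 0 genes of the 5 lists passed edgeR, and DESeq2 called Ncam1 in fibroblasts. Ncam1 was there at 30.6 and 24.0 against 48.4 and 42.4, a log2 change of 0.73 ± 0.15 (edgeR adjusted p = 0.205). List medians in fibroblasts ran from -0.13 for the proteoglycans, of which 0 of 6 tested were higher, to -0.0049 for the Ptprz1 list, against 0.0022 over all genes. Biglycan (Bgn), the second most abundant proteoglycan of the list, was at 380.2 and 361 against 269 and 267, a change of -0.47 ± 0.11 (edgeR adjusted p = 0.263).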

How the data were processed

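The authors deposited whole UMI counts per gene and barcode, not normalised, with 1 sparse matrix for each library. Cell Ranger 6.1.2 and mm10 are named in the submitters' processing notes. The protocol in the labels describes Dispase II digestion (2.5 mg/mL) and a 22% Percoll spin, which removes debris and can favour some cells, and matches every NdpWT run to an NdpKO run of the same litters. The sources used here do not state a removal of doublets or of free RNA by the authors, and free RNA was not corrected.

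The filters kept barcodes from 500 genes and 1000 UMIs upward whose mitochondrial share was no more than 10%. Scrublet (scanpy 1.11.5) then removed 241, 257, 97 and 212 barcodes, fewer than the loading would give (1072, 1962, 588 and 1437), so doublets remain. Cells were clustered on 2000 variable genes and 30 principal components (20 shared neighbours, Leiden resolution 1, leidenalg 0.10.2), and Ptn, Ptprz1 and Sdc4 were among those genes. A cluster was named from marker lists when at least 3 markers of a type exceeded the median cluster 2-fold in at least 10% of its cells, and names can differ from the authors'.

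UMIs were summed per library and class. All 14 classes that reached 50 cells in each of the 4 libraries were tested with edgeR 4.0.16 (R 4.3.3; quasi-likelihood, robust, TMM, filterByExpr minimum count 10), with Benjamini-Hochberg adjustment within a class and a threshold of 0.05, after a check on simulated counts. DESeq2 1.42.0 was an alternative. P-values rest on the spread between 2 pooled libraries of a genotype, and an exact permutation test of 2 against 2 cannot give a p below 0.333. Intervals are exact at 95% and cover counting error only.

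The 6 genes, the lists and the tests were chosen with earlier results of these data known. Named genes are the 6, list genes past the threshold outside mural cells, the 2 most abundant of each list, and the 3 genes with the highest correlation with each of the 6 across classes (log2 of CPM plus 1, genes reaching 20 CPM in a class). Positions are from GENCODE M21, in which 32158 of 32285 features matched by identifier. Alternatives were another scaling, filter, tool and cell filter, more doublets removed, clustering without the 6 genes and the lists, a replicate block, and leaving out each library.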

Additional observations from a re-analysis of the deposited data

Results flagged for a closer look

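For 3 genes both NdpKO libraries lay above both NdpWT libraries in some of the classes tested and below both in others. So did 60.1% of the 7050 genes tested in at least 13 classes, so such opposite orders are common in these libraries. These differences between classes were not tested, and are given as differences of the log2 changes (NdpKO over NdpWT). For Ptn, higher in both NdpKO libraries of cycling cells and the granule neuron lineage and lower in fibroblasts and mural cells, the differences were 0.48 and 1.03 for cycling cells against fibroblasts and mural cells, and 0.63 and 1.18 for the granule neuron lineage against the same classes. The mural values belong to the contrast the genes were selected on.

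Sdc3 was lower in both NdpKO libraries of endothelial and mural cells. Against these classes the differences were 0.75 and 1.01 for cluster 7, 0.42 and 0.69 for monocytes or dendritic cells, and 0.93 and 1.19 for other neurons. Sdc4 was lower in both NdpKO libraries of arachnoid barrier and endothelial cells. Against them it differed by 0.98 and 0.70 in cluster 18 and by 0.72 and 0.44 in mural cells. In cluster 7 and in erythroid cells the differences were 0.52 and 0.24. Mean Sdc4 there was 8.35 and 5.77 CPM, near the 4.78 of erythroid cluster 12. Its changes there were 0.16 ± 0.53 and 0.16 ± 0.33 (SE), and the endothelial change was -0.08 ± 0.27, so these differences carry little weight.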

How the results depend on the processing

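Of the 6 genes outside mural cells, edgeR called 0 pairs of gene and class, against 3 without the filter on low counts, 4 with the replicate block and 1 by DESeq2. Leaving out a library gave 0 to 2, with 0 without NdpKO replicate 1. Mdk made the 3 calls without the filter and 3 of the 4 with the block (adjusted p = 0.000609 in arachnoid barrier cells, 0.0126 in fibroblasts and 0.00807 in endothelial cells), and the other block call was Ptn in monocytes or dendritic cells. For none of the alternatives is the share of all genes called given. Calls made only under an alternative are therefore not read as results about Mdk, the other 5 genes or the list genes. List genes outside mural cells gave 3 calls, against 8 without the filter, 17 with the block, and 2 to 13 with a library left out, the most without NdpWT replicate 2.

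The log2 change of Ptn in mural cells was -0.87 and kept its sign in every alternative run. It was -1.34 with more doublets removed, -1.60 in mural subcluster 1 and -0.31 in mural subcluster 3, and -1.19 to -0.61 with a library left out. The difference in the share of mural cells with a Ptn UMI, -17.9 percentage points after thinning, was -6.56 without thinning and -24.9 to -10.8 with a library left out. Mdk passed the threshold in 10 of 80 alternative fits over its 7 ordered classes, where the choice of classes fixes the sign of the fits with a library left out. Its sign changed with the setting in cycling cells, the granule neuron lineage, other neurons, macrophages and monocytes or dendritic cells.

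Samples with the same replicate number deviated together with correlations of -0.07 to 0.38 over 14 classes. There are 2 pairs, and the labels do not tie the number to the litter match, so the block was left out of the main fits and is given only as an alternative.

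Depth limits Alk most, with 414 UMIs in all. Free RNA was not removed, doublets remain, and class names were rebuilt. With 2 libraries per genotype a p that misses the threshold does not show that levels were alike.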
